A study of Mus musculus with 3 samples.

Results

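Barcodes that carried RNA of platelets and megakaryocytes were followed in 3 single-cell libraries of mouse spleen, labelled MASH-Phe-free, MASH and Chow, with 1 library for each. A barcode stands for 1 droplet, and each counted molecule is a UMI. A barcode was chosen when it held at least 300 genes and 500 UMIs with at most 10% mitochondrial UMIs, at least 3 of the 5 genes Pf4, Ppbp, Itga2b, Gp9 and Treml1, and no UMI of Cd79a (B cells), Cd3e (T cells) or C1qa (macrophages). This rule took 172 of 49499 filtered barcodes, 0.347% of them, with 72 in the MASH-Phe-free library, 46 in MASH and 54 in Chow. Because measured values chose these barcodes, their number and the levels of the rule genes are given as a description.

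The labels give the tissue and the name of the group, and no more was stated of diet, age, sex or the number of animals behind a spleen library. The text of the series speaks of C3H mice that first ate a diet with 60% of its kcal as fat for 8 weeks, then 1 low in methionine and choline, against mice on a control diet. By that text the mice, those on the control diet included, carried HCA-1 liver cancer cells under the skin for 4 weeks. Whether the spleens came from such mice was not stated. With 1 library per group, no difference between groups could be set against a spread between animals. Intervals are 95% intervals and cover counting error only.

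Megakaryocytes are very large cells of the bone marrow and, in mice, of the splenic red pulp, which copy their genome without dividing and shed platelets through long extensions called proplatelets. Platelets have no nucleus and carry RNA left by the megakaryocyte, together with alpha granules of adhesive proteins and chemokines, dense granules of serotonin and nucleotides, and receptors for collagen, von Willebrand factor and thrombin. The spleen stores a share of the body's platelets, and platelets also adhere to leukocytes.

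The 3 libraries held 16778, 19219 and 16495 barcodes in the MASH-Phe-free, MASH and Chow libraries, with 160115282, 152501471 and 138787602 UMIs. After the filter 15864, 17651 and 15984 barcodes remained. Pairs of libraries shared between 72 and 102 barcode sequences, and no sequence was chosen in both libraries of a pair. Scrublet, a doublet caller, marked between 1.80% and 1.97% of barcodes and none of the 172.

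Most chosen barcodes were shallow and rich in platelet genes. Of 172, 25 held 10000 UMIs or more with a small share of platelet genes beside markers of monocytes, neutrophils, erythroid cells, progenitors or other cells, and some lay between these kinds. The share was measured on 93 platelet genes in 5 lists (adhesion receptors, alpha granules, activation, dense granules and cytoskeleton), none of which the rule uses. These 93 genes took a median of 11.4% of UMIs in the MASH-Phe-free barcodes, 10.1% in MASH and 12.6% in Chow. In all other barcodes of the same libraries they took medians of 0.721%, 0.642% and 0.659%, with 99th percentiles of 2.49%, 2.40% and 2.34%. Of the 172 barcodes, 127 drew at least 5% of their UMIs from the 93 genes, namely 52 of 72 in MASH-Phe-free, 31 of 46 in MASH and 44 of 54 in Chow. The line at 5% was chosen after the values were seen, and 6 barcodes lay between 4% and 6%. The 127 platelet-rich barcodes held 610 to 9263 UMIs with a median of 1154, and the other 45 held 554 to 44680 with a median of 13733. At least 3 markers of 1 other cell list were found in 37 of the 45 and in 6 of the 127, counts that were not compared at equal depth. Another 15, 17 and 7 barcodes of the MASH-Phe-free, MASH and Chow libraries reached 5% without meeting the rule.

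**Figure D1:**
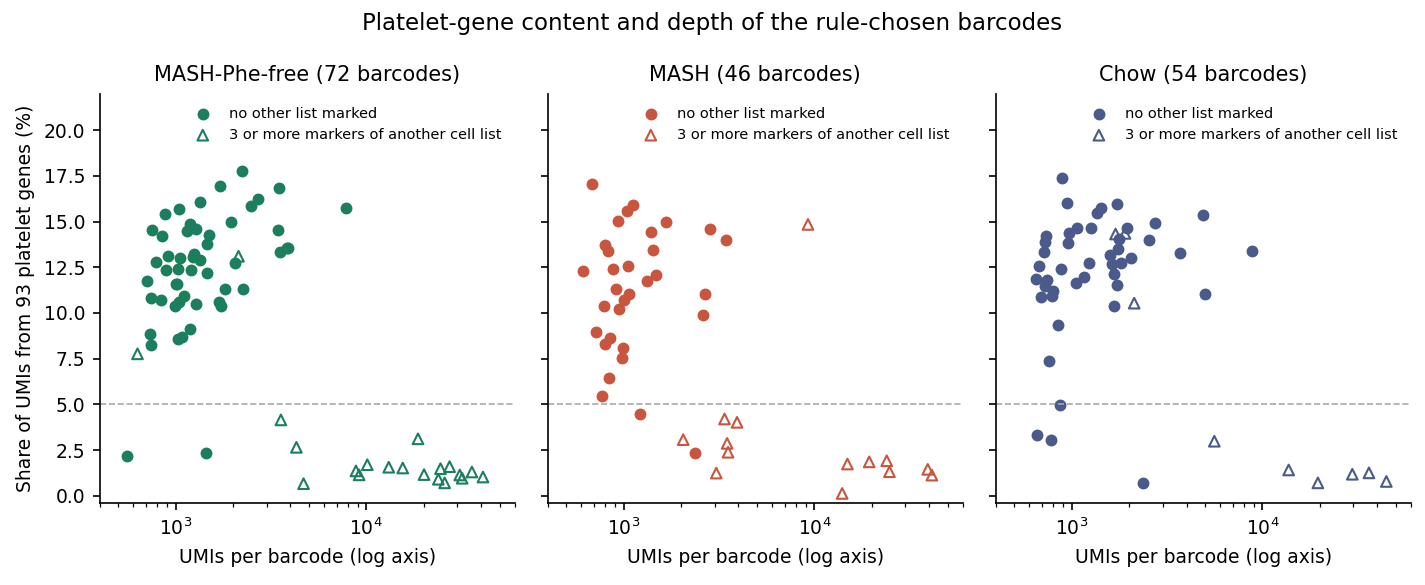
Each point is 1 chosen barcode, by its UMIs (log axis) and the percent of its UMIs from 93 platelet genes that the rule did not use, with 1 panel per library; triangles carry at least 3 markers of 1 other cell list and the dashed line is at 5%. In all 3 panels a cluster of shallow barcodes lies above the line, and every barcode from 10000 UMIs lies below it, at 3.12% or less.

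The megakaryocyte side of the label was not seen in these barcodes. Megakaryocytes hold far more RNA than platelets, yet no barcode combined 10000 or more UMIs with a high share of platelet genes: the 25 barcodes of that depth drew 0.129% to 3.12% of their UMIs from the 93 genes. The deepest platelet-rich barcodes had 7837 UMIs with 15.7% from the 93 genes in MASH-Phe-free, 9263 UMIs with 14.8% in MASH and 8774 UMIs with 13.4% in Chow. None of these 3 held a UMI of Mki67, a gene of dividing cells, or of Kit, a receptor of blood progenitors. Among all 127 platelet-rich barcodes Kit had 1 UMI, and Mki67 had 4 UMIs in 3 barcodes. The barcodes are therefore called platelet-rich where they reached the 5% line, and deep where they held 10000 UMIs or more.

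The 5 rule genes encode a chemokine of alpha granules (Pf4, platelet factor 4), a second chemokine precursor (Ppbp), the alpha IIb chain of the fibrinogen receptor (Itga2b), a chain of the von Willebrand factor receptor (Gp9) and a receptor stored in alpha granules (Treml1). All 5 were detected in 40 of 72 MASH-Phe-free, 20 of 46 MASH and 32 of 54 Chow barcodes. In barcodes under 2000 UMIs Pf4 had 7166 counts scaled to a total of 1000000 UMIs (CPM) in MASH-Phe-free, 6680 in MASH and 8413 in Chow, summed over the barcodes of each library. Ppbp had 6010, 5093 and 4848 CPM in the same order, and Itga2b had 3740, 3654 and 3764 CPM. Gp9 stood at 3131, 3063 and 3719 CPM and Treml1 at 1891, 1255 and 1461 CPM. These levels describe what the rule selected. A median shallow barcode drew 1.86% of its UMIs from the 5 genes in MASH-Phe-free, 1.72% in MASH and 2.11% in Chow, against 0.0299%, 0.0268% and 0.0439% in a median deep barcode.

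At the edge of the rule, the 40 barcodes with exactly 3 rule genes had a median of 0.0604% of UMIs from them in MASH-Phe-free, 0.378% in MASH and 0.569% in Chow. Just outside, with exactly 2, were 28, 21 and 7 barcodes with medians of 0.0196%, 0.0596% and 0.0533%. A further 34, 44 and 20 filtered barcodes held at least 3 rule genes together with Cd79a, Cd3e or C1qa. At least 3 rule genes appeared in 0.321%, 0.190% and 0.168% of all barcodes with Cd3e, in 0.277%, 0.340% and 0.116% of those with Cd79a, and in 0.384%, 0.600% and 0.354% of those with C1qa, so platelet RNA was also found beside RNA of other cells in each library.

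The region before the transcription start is shown for 3 rule genes, because megakaryocyte promoters are known for sites of GATA and ETS family factors. The 150 bases before each start are from RefSeq on build GRCm38.p6, which is not the build of the counts, and were matched by gene symbol. Capitals mark the letters GATAA or TTATC for GATA, and GGAAG or CTTCC for ETS, searched on both strands.
Pf4, chr5:90772285-90772434, plus strand: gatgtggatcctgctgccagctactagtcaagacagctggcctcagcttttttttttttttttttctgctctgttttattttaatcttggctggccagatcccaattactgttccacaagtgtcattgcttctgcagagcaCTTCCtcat
Itga2b, chr11:102469884-102470033, minus strand: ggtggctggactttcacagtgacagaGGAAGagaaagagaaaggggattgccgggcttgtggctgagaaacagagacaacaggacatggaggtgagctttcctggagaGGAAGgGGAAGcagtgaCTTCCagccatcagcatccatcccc
Gp9, chr6:87777920-87778069, plus strand: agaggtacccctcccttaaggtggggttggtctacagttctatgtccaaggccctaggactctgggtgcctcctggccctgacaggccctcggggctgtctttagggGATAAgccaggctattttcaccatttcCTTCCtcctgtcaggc
Over the full 250 bases before the start, the GATA letters were found in 1 of the 5 rule genes and the ETS letters in 5 of 5, against 22.6% and 64.1% of 32851 promoters. Of the 20 marking genes described next, 14 matched a promoter, and 3 and 9 of them held these letters. A match is a string of letters and was not measured as a bound site.

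The 20 genes that most marked the chosen barcodes, outside the rule, were Nrgn, Gng11, Tubb1, Tsc22d1, Ctla2a, Pcp4l1, Alox12, Myl9, Clu, Thbs1, Itgb3, Clec1b, Parvb, Sh3bgrl2, Gp1bb, Fhl1, Gas2l1, Gp5, Rgs18 and Slc6a4. They include Tubb1, the beta tubulin of the platelet's marginal band, Alox12, the platelet 12-lipoxygenase, Thbs1, the alpha granule protein thrombospondin, and Slc6a4, the transporter by which platelets take up serotonin. Nrgn, a calmodulin-binding protein abundant in platelets and neurons, had a UMI in 170 of 172 barcodes. Its log2 ratio over all other barcodes was 7.74 in MASH-Phe-free, 7.37 in MASH and 8.20 in Chow, on CPM with 10 added. These genes were not chosen independently of the rule, so the ratios carry no test. Over all genes with at least 20 UMIs, 11.8%, 29.8% and 27.6% were at least 2-fold higher than in other barcodes, and 1.91%, 6.85% and 3.46% lower, with an interval that excluded 1. For barcodes under 2000 UMIs 78.5%, 79.4% and 82.5% were higher and 6.44%, 7.35% and 4.66% lower. Nothing is read from these shares, since the rule used the same contrast.

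The same genes separated shallow from deep barcodes. Nrgn stood at 23661, 19118 and 18043 CPM in barcodes under 2000 UMIs of the MASH-Phe-free, MASH and Chow libraries, and at 537, 388 and 348 CPM in deep barcodes. In all other barcodes it had 14.0, 15.2 and 9.97 CPM. Reduced to 743 UMIs each, 83.6%, 85.4% and 89.2% of the 66, 43 and 45 chosen barcodes of at least that depth held Nrgn. Before reduction 98.6%, 100% and 98.1% of all 72, 46 and 54 chosen barcodes held it. In barcodes with Cd3e, T cells that should lack the gene, the reduced shares were 0.543%, 0.551% and 0.355%. Median depths were 1719 UMIs in the 66 chosen barcodes kept for MASH-Phe-free and 8618 in its barcodes with Cd3e.

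**Figure D2:**
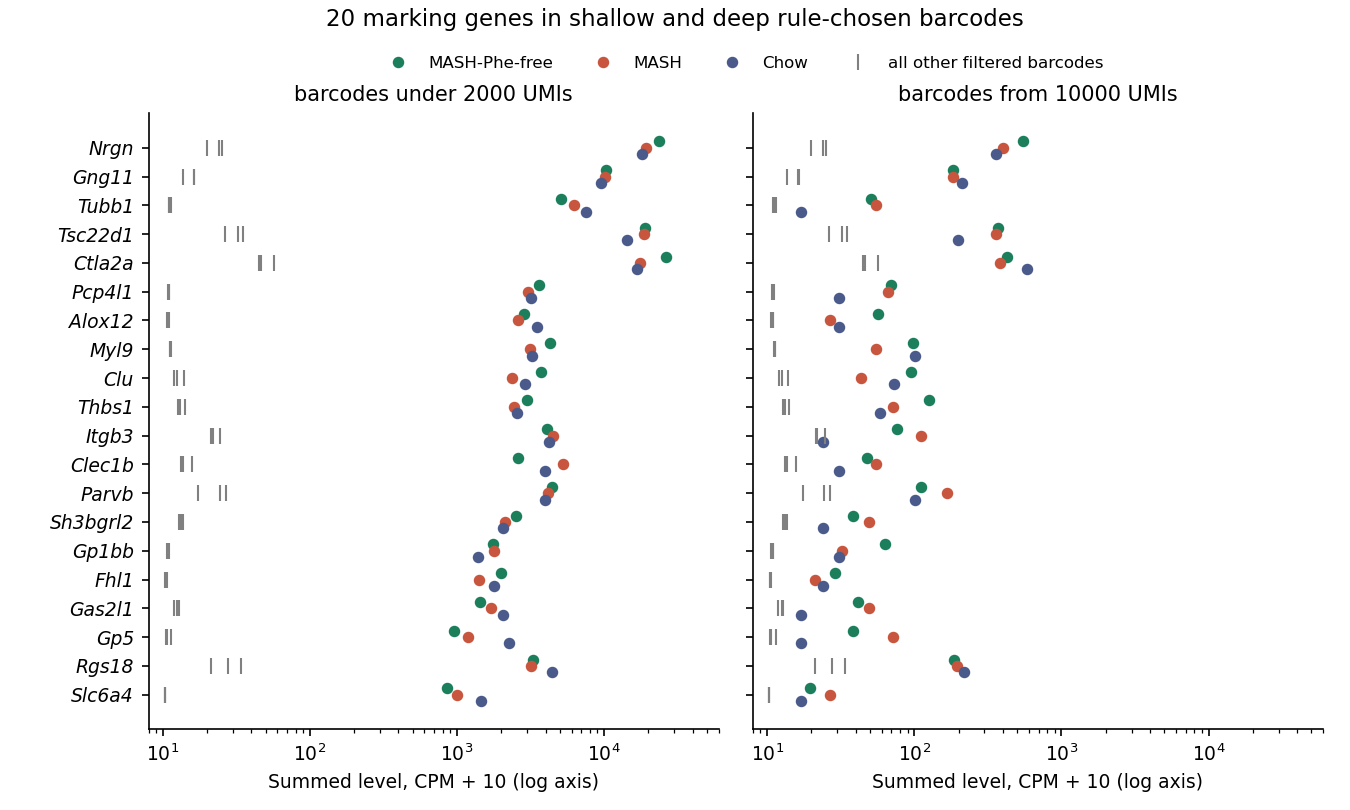
Summed level of the 20 marking genes (CPM plus 10, log axis) in chosen barcodes under 2000 UMIs (left) and from 10000 UMIs (right), with MASH-Phe-free, MASH and Chow as coloured points and all other filtered barcodes of the 3 libraries as grey ticks. Nrgn lies at 18043 to 23661 CPM on the left and at 348 to 537 CPM on the right.

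Platelet-rich and chosen barcodes took their largest share of filtered barcodes in the MASH-Phe-free library. Chosen barcodes made up 0.454% (exact interval 0.355% to 0.571%) of filtered barcodes in MASH-Phe-free, 0.261% (0.191% to 0.347%) in MASH and 0.338% (0.254% to 0.441%) in Chow. The share in MASH-Phe-free was 1.74 times that in MASH (interval 1.20 to 2.52), and that in MASH was 0.771 times that in Chow (0.521 to 1.14). Platelet-rich barcodes made up 0.328%, 0.176% and 0.275%. Their ratio was 1.87 (1.20 to 2.91) for MASH-Phe-free over MASH and 0.638 (0.403 to 1.01) for MASH over Chow. Barcodes with all 5 rule genes gave 2.23 (1.30 to 3.80) and 0.566 (0.324 to 0.989).

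These ratios describe counts of barcodes in 1 library per group and are no test of a difference between groups. The share in MASH-Phe-free was 1.34 times that in Chow (0.945 to 1.91). The filter on barcodes and the exclusion of Cd79a, Cd3e and C1qa both bear on these shares. Before the exclusion 106, 90 and 74 filtered barcodes held at least 3 rule genes, and it removed 34, 44 and 20. Without it MASH-Phe-free, with 106 of 15864, still had the largest share. MASH, with 90 of 17651, then lay above Chow, with 74 of 15984. Barcodes that met the rule on genes but not the filter numbered 37, 42 and 19, with a median of 615, 570.5 and 562 UMIs, and 37, 41 and 16 of them had under 300 genes. Over all deposited barcodes the chosen ones became 109, 88 and 73, or 0.650%, 0.458% and 0.443%. The ratio was then 1.42 (1.07 to 1.88) for MASH-Phe-free over MASH and 1.03 (0.759 to 1.41) for MASH over Chow, which put MASH slightly above Chow. How the spleens were dissociated and whether red cells and platelets were removed was not stated, and a difference in such handling cannot be told apart from a difference between groups.

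**Figure D3:**
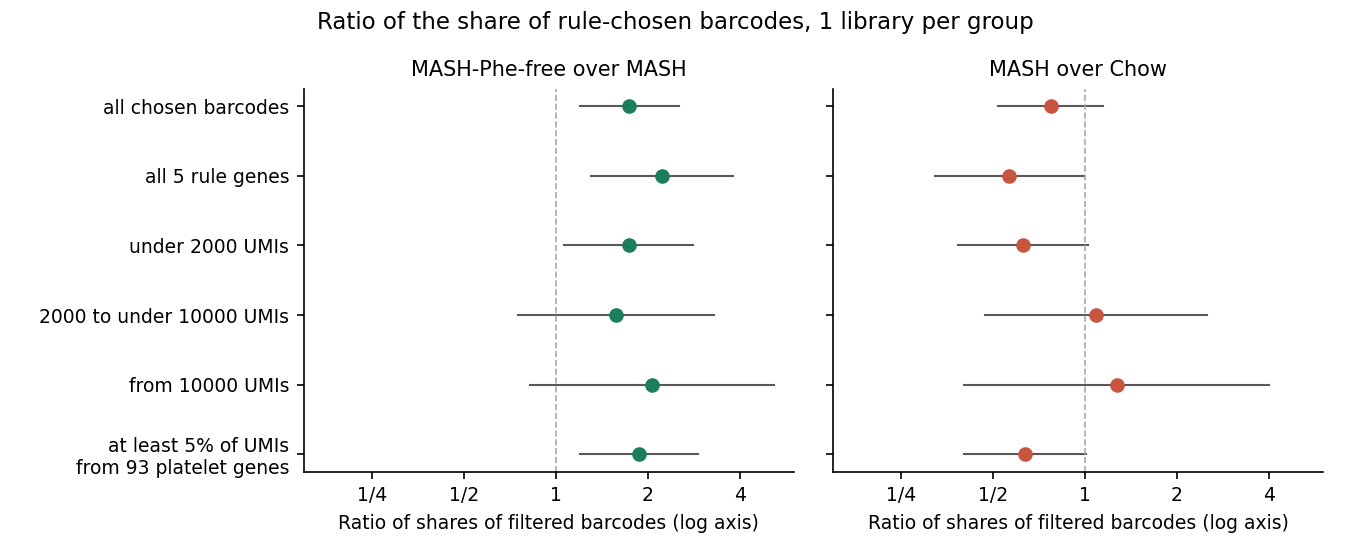
Ratio of the share of chosen barcodes among filtered barcodes (log axis), for MASH-Phe-free over MASH (left) and MASH over Chow (right), with 1 row for each set of barcodes; bars are 95% intervals for counting error in 1 library per group. The ratio for all chosen barcodes is 1.74 on the left and 0.771 on the right.

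By depth, 42 MASH-Phe-free, 27 MASH and 39 Chow barcodes held under 2000 UMIs, 17, 12 and 10 held 2000 to under 10000, and 13, 7 and 5 held 10000 or more. The shallow class gave a ratio of 1.73 (1.07 to 2.81) for MASH-Phe-free over MASH and 0.627 (0.384 to 1.02) for MASH over Chow. For deep barcodes the ratios were 2.07 (0.825 to 5.18) and 1.27 (0.402 to 3.99). A chosen barcode held a median of 1477, 1355.5 and 1503.5 UMIs and of 497.5, 476 and 488 genes, against 6687.5, 6430 and 7371 UMIs in other barcodes. Mitochondrial genes made up a median of 1.58%, 1.12% and 1.20% of its UMIs, against 1.95%, 2.04% and 2.28% in other barcodes.

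The 25 deep barcodes were described by the markers of 12 other cell lists. All 25 carried at least 3 markers of 1 such list, against 3 of the 108 barcodes under 2000 UMIs and 43 of the 172 in all. Monocyte markers were found in 18 of the 25, neutrophil markers in 7, erythroid in 6, progenitor in 7, dendritic in 2 and basophil or mast cell in 1, with some barcodes in several lists. F13a1, a clotting factor subunit, is in both the monocyte and the alpha granule list. Kit, Cd34 and Myb are in both the progenitor and the stem cell list, and Cpa3 is in both the basophil and the stem cell list. No marker list of NK, plasma or stromal cells reached 3 markers in any chosen barcode. The B cell list did not either, but this was largely set by the rule, which left out barcodes with Cd79a. Among filtered barcodes with at least 3 rule genes, 15, 23 and 8 held Cd79a.

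Single deep barcodes show what lay beside the platelet genes. One MASH barcode of 13996 UMIs held 9414 UMIs of Hbb-bs, a beta globin gene, and 3 UMIs of rule genes. Another MASH barcode, of 24775 UMIs, held 3948 UMIs of S100a9, a neutrophil protein, and 14 of rule genes. A MASH-Phe-free barcode of 30935 UMIs held 876 UMIs of Mcpt8, a basophil protease, and 11 of rule genes. The deepest Chow barcode, with 44680 UMIs, held 15 UMIs of Kit, 59 of Mki67 and 13 of rule genes, and carried progenitor and erythroid markers. A MASH-Phe-free barcode of 31841 UMIs had 2 UMIs of Kit, 10 of Mki67 and 30 of rule genes. The 93 platelet genes took 0.958% of the UMIs of this barcode and 0.783% of those of the deepest Chow barcode.

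Deep barcodes held 73.0% of the UMIs of all chosen barcodes in MASH-Phe-free, 71.8% in MASH and 62.9% in Chow. A sum over all 172 therefore reads mostly the other cells, and platelet RNA was compared between libraries in barcodes under 2000 UMIs. Those sums held 47588 UMIs in MASH-Phe-free, 27095 in MASH and 45170 in Chow. A gene was called when its CPM with 10 added differed at least 2-fold and its exact interval excluded 1, among genes with at least 20 UMIs over both libraries.

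In MASH-Phe-free over MASH, few platelet genes were called in shallow barcodes, and those were lower. Cald1, which encodes the actin-binding protein caldesmon, had 399 CPM in MASH-Phe-free, 1329 in MASH and 1085 in Chow. It was found in 13 of 42, 17 of 27 and 21 of 39 barcodes, and its ratio of MASH-Phe-free over MASH was 0.300 (0.163 to 0.538). Tubb2a, a beta tubulin outside the lists, had 862, 2879 and 2236 CPM with a ratio of 0.299 (0.200 to 0.442). Fli1, an ETS factor of megakaryocytes, had 7, 17 and 19 UMIs and a ratio of 0.234 (0.0822 to 0.595). Clec1b, the receptor for podoplanin, stood at 2606 CPM in MASH-Phe-free, 5204 in MASH and 3941 in Chow. Its ratio of 0.501 (0.390 to 0.642) fell just short of the 2-fold line on the scale with 10 CPM added, and it was not called.

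In shallow barcodes the MASH-Phe-free library was lowest for these 4 genes, the MASH library highest and Chow between. Over the barcodes of any depth without 3 markers of another list, Cald1 had 614, 951 and 1033 CPM, its ratio of MASH-Phe-free over MASH was 0.645 (0.418 to 1.004), and it was not called. Fli1 had 401, 537 and 530 CPM there with a ratio of 0.748 (0.425 to 1.34), and was not called. Tubb2a had 1216, 2951 and 3995 CPM with a ratio of 0.412 (0.314 to 0.540) and kept its call. In that set Chow, not MASH, was highest for Cald1, Tubb2a and Clec1b. Among shallow barcodes the spread within each library was wide: Clec1b ranged from 0 to 13234 CPM over MASH-Phe-free barcodes with a median of 2126, and from 0 to 25520 CPM over MASH barcodes with a median of 4790. Over Chow barcodes the range was 0 to 13206 CPM, with a median of 3466.

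Ctla2a, a cysteine protease inhibitor kept in the cytoskeleton list, was instead higher in MASH-Phe-free. It had 26351 CPM in MASH-Phe-free, 17457 in MASH and 16693 in Chow, and its ratio of MASH-Phe-free over MASH was 1.51 (1.36 to 1.68), short of 2-fold. Clu, the alpha granule protein clusterin, had 3740, 2362 and 2878 CPM and a ratio of 1.58 (1.18 to 2.14).

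Outside the lists, Mest, Fkbp1a, H4c9, Ppia and Gng5 were higher in shallow barcodes of MASH-Phe-free than of MASH. Fkbp1a, an immunophilin, had 925 CPM in MASH-Phe-free, 332 in MASH and 465 in Chow, with a UMI in 25 of 42, 7 of 27 and 11 of 39 barcodes. Ppia, also an immunophilin, had 1618, 775 and 1041 CPM, and Gng5, a G protein gamma subunit, 1156, 554 and 221 CPM. H4c9, a histone H4 gene, had 1051, 406 and 930 CPM. Mest had 2017, 480 and 1350 CPM, with 43.8% of its MASH-Phe-free UMIs from 1 barcode. Cst3 was also called higher, with 1471, 480 and 642 CPM, but 70.0% of its MASH-Phe-free UMIs lay in 1 barcode.

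Over all genes of this comparison in shallow barcodes, 13 of 488 were called higher (2.66%) and 24 lower (4.92%). In the 5 platelet lists 12 adhesion, 9 alpha granule, 15 activation, 3 dense granule and 15 cytoskeleton genes were measured, none was called higher, and Cald1 alone was called lower. The medians of log2 ratios were -0.18 for adhesion receptors, 0.04 for alpha granules, 0.10 for activation, -0.24 for dense granules and 0.02 for the cytoskeleton, beside -0.02 for all measured genes.

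In MASH over Chow, shallow barcodes differed in a tubulin gene and in a few genes that were lower in MASH. Tuba4a, an alpha tubulin, had 517 CPM in MASH, 1550 in Chow and 525 in MASH-Phe-free, and its ratio of MASH over Chow was 0.333 (0.173 to 0.597). It was found in 7 of 27 MASH and 25 of 39 Chow barcodes, and in 13 of 42 of MASH-Phe-free. Nfe2, a factor required for platelet release, had 369 CPM in MASH and 841 in Chow, on 10 and 38 UMIs, and a ratio of 0.439 (0.195 to 0.897). Tln1, which encodes talin and activates the fibrinogen receptor, had 2214 CPM in MASH and 4317 in Chow, a ratio of 0.513 (0.377 to 0.688) that was not called. Gp5, a chain of the von Willebrand factor receptor, had 1181 CPM in MASH and 2236 in Chow, a ratio of 0.528 (0.343 to 0.793), and was not called either. In MASH-Phe-free these last 2 genes stood at 2438 and 946 CPM, nearer to MASH.

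Ecm1, an extracellular matrix protein, was higher in MASH, with 2251 CPM against 930 in Chow and a ratio of 2.42 (1.61 to 3.68). It was found in 22 of 27 MASH and 20 of 39 Chow barcodes. Lower in MASH by the same rule were Mest, Arhgap18, Itgb5, Sptbn1, Smim3, H4c9 and Nck2, with ratios of 0.355 to 0.449. Itgb5, the beta 5 chain of integrins, had 406 CPM in MASH and 952 in Chow. Sptbn1, a spectrin chain, had 591 CPM in MASH and 1373 in Chow. Over all genes of this comparison 18 of 512 were called higher (3.52%) and 29 lower (5.66%). In the 5 platelet lists 13 adhesion, 9 alpha granule, 16 activation, 3 dense granule and 16 cytoskeleton genes were measured, none was called higher, and Tuba4a alone was called lower. The medians of log2 ratios were 0.00 for adhesion receptors, -0.35 for alpha granules, -0.12 for activation, -0.53 for dense granules and -0.12 for the cytoskeleton, beside -0.09 for all.

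**Figure D4:**
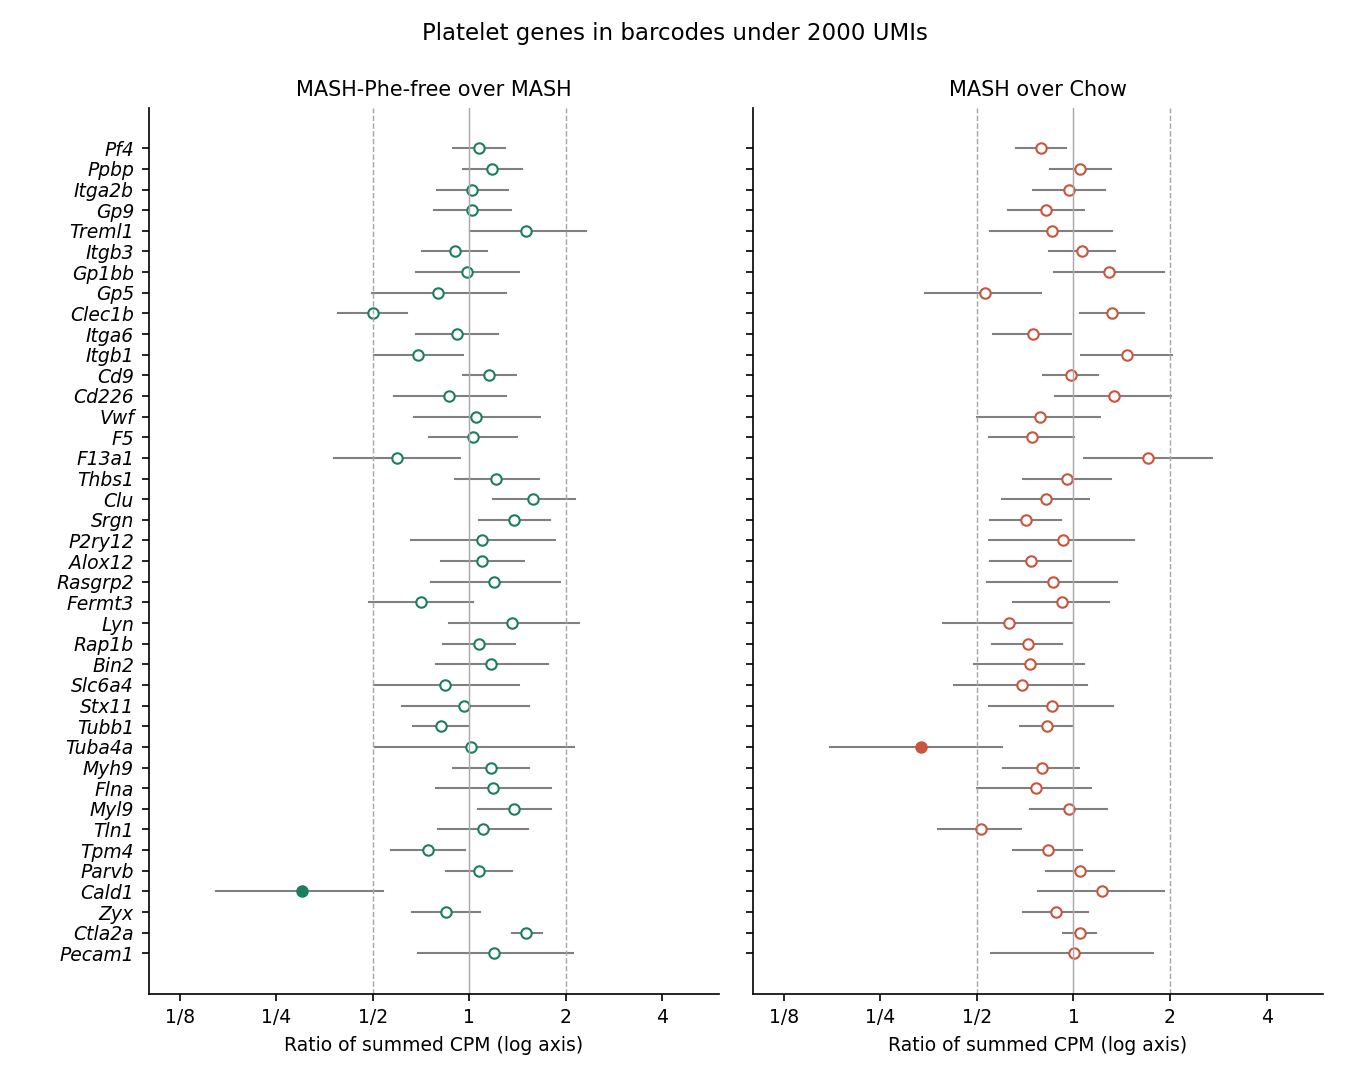
Ratio of summed CPM in chosen barcodes under 2000 UMIs (log axis) for MASH-Phe-free over MASH (left) and MASH over Chow (right), for the 40 rule and list genes with at least 60 UMIs over the pair of libraries in either comparison; bars are exact 95% intervals for counting error, filled points were called, and dashed lines mark 2-fold. Cald1 on the left (0.300) and Tuba4a on the right (0.333) are filled.

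These 2 comparisons share the MASH library, so their values are not independent. Mest and H4c9 were called in both, lower in MASH than in Chow and higher in MASH-Phe-free than in MASH. Over the 40 genes plotted, 5 of which the rule used, ratios ranged from 0.333 to 1.71 in MASH over Chow and from 0.300 to 1.58 in MASH-Phe-free over MASH.

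The thrombopoietin pathway and the transcription factors were thinly covered in shallow barcodes, and 4 and 2 of their genes were measured in MASH over Chow. Shares of barcodes with a UMI were therefore compared after reduction to 743 UMIs. Vwf, von Willebrand factor, was held by 47.8%, 35.6% and 52.4% of the reduced barcodes. Itgb3, the beta 3 chain that pairs with Itga2b, was held by 72.1%, 64.9% and 75.9%, and by 1.72%, 1.49% and 1.72% of barcodes with Cd3e. Gp5 was held by 37.8%, 42.2% and 63.9%, highest in Chow.

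Summed over all 172 barcodes, interferon-response genes were higher in MASH than in Chow and lower in MASH-Phe-free than in MASH. Of 26 measured genes of this list 20 were called higher in MASH than in Chow, with a median log2 ratio of 1.58 beside -0.11 for all 3891 measured genes, of which 9.41% were called higher and 10.4% lower. In MASH-Phe-free over MASH 16 of 30 were called lower and none higher, with a median of -1.13 beside 0.14, and 5.33% of 5084 genes were called lower and 9.38% higher. Isg15, a ubiquitin-like protein induced by interferon, had 87.0 CPM in MASH-Phe-free, 505 in MASH and 26.2 in Chow. The ratio was 0.172 (0.117 to 0.249) for MASH-Phe-free over MASH and 19.3 (8.60 to 53.5) for MASH over Chow, and 49.6% of the MASH UMIs came from 1 barcode, the one dominated by Hbb-bs. Rtp4, another interferon-induced gene, had 22.9, 267 and 30.6 CPM, in 5, 12 and 2 barcodes.

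In the barcodes rich in platelet genes the 3 intervals overlapped. The 33 interferon genes summed to 1240 CPM (1015 to 1500) in platelet-rich barcodes of MASH-Phe-free, 1200 (906 to 1558) in MASH and 1098 (874 to 1363) in Chow. In barcodes of 2000 to under 10000 UMIs they summed to 1306, 9013 and 2390 CPM, where 1 barcode gave 17.4%, 39.8% and 52.6% of the UMIs. In deep barcodes they summed to 6253, 10750 and 5035 CPM, where 1 barcode gave 15.6%, 23.4% and 35.2% of the UMIs. Isg15 had a UMI in 2 of the 127 platelet-rich barcodes and in 21 of the other 45, sets with median depths of 1154 and 13733 UMIs. Its level in platelet-rich barcodes was 70.2 CPM in MASH-Phe-free, 85.7 in MASH and 0 in Chow. In the other 45 barcodes it was 91.1, 603 and 38.9 CPM, and 1 barcode gave 62 of the 121 MASH UMIs. Within deep barcodes alone 14 of 21 measured genes were called higher in MASH than in Chow, where 10% of all genes (307 of 3060) were higher and 14.1% lower. For MASH-Phe-free over MASH 12 of 26 were called lower, where 4.99% of all genes were lower and 10% (437 of 4350) higher. In shallow barcodes 1 of the 33 genes was measured in either comparison, Ifitm3, and it was not called.

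**Figure D5:**
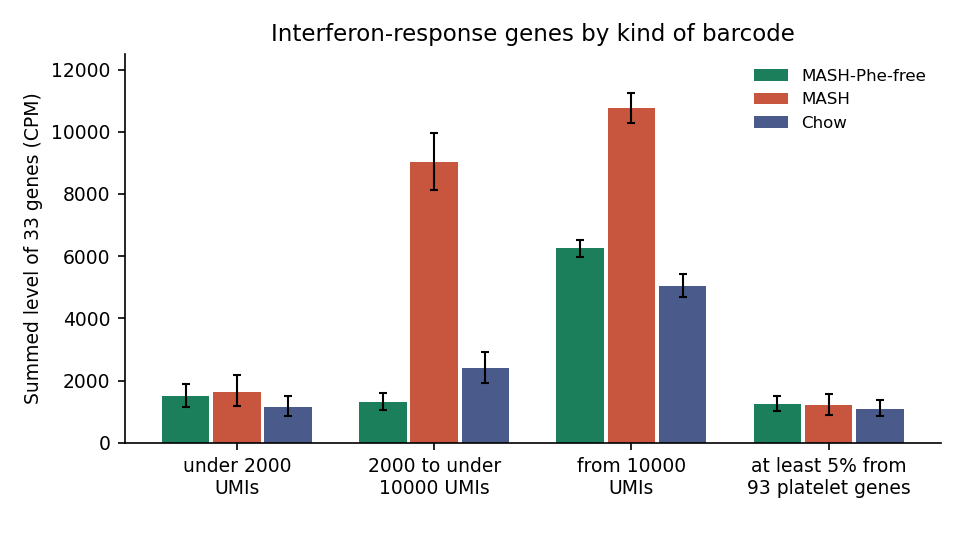
Summed level (CPM) of 33 interferon-response genes in chosen barcodes by depth and, at the right, in platelet-rich barcodes, for MASH-Phe-free, MASH and Chow; bars carry exact Poisson 95% intervals for counting error. MASH is highest at 10750 CPM in deep barcodes, and the 3 libraries lie at 1098 to 1240 CPM in platelet-rich ones.

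Other genes were called over all 172 barcodes, some with most of their UMIs in 1 barcode and some spread over many. Higher in MASH than in Chow were Ccl5, Slfn4, Isg15, S100a8, S100a9, Oasl2, Mmp8 and Slfn5. Ccl5, a chemokine, had 89 UMIs in 6 MASH barcodes and none in Chow, at least 27.4-fold higher against a floor of 3 counts in the Chow sum, and 52.8% of the MASH UMIs lay in 1 barcode. For S100a9 90.8% of the MASH UMIs and 95.4% of the Chow UMIs lay in 1 barcode each. Lower in MASH than in Chow were Serpina3g, Angpt1, H1f4, Cdk6, Sap30l, Inka1, Pard3b and Ezh2. Sap30l was spread over barcodes, with 8 UMIs in 8 MASH and 53 UMIs in 27 Chow barcodes, and Pard3b had 11 UMIs in 5 MASH and 58 UMIs in 18 Chow barcodes. The progenitor genes Kit, Myb and Muc13 had no UMI in MASH and 25, 27 and 25 UMIs in 4 Chow barcodes each.

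In MASH-Phe-free over MASH the histone genes H1f5, H1f4, H2ac8, H2ac4, H1f3 and H3c7, together with Pnn and Hmgb3, were higher. Histone genes such as these are transcribed in cells that copy their DNA. H1f5 had 419 UMIs in 9 MASH-Phe-free and 2 UMIs in 1 MASH barcode, and 49.9% of the MASH-Phe-free UMIs lay in 1 barcode. Lower were Ccl5, Il1b, Slfn4, Rtp4, Dusp1, Gngt2, Pou2f2 and Isg15. Of the stem and progenitor list 4 of 6 measured genes were higher in MASH-Phe-free than in MASH, beside 9.38% of all genes, and 5 of 7 were lower in MASH than in Chow, beside 10.4%. Its summed level was 1648, 259 and 2128 CPM in deep barcodes, and 2047, 1778 and 1996 CPM in platelet-rich ones. In deep barcodes 1 barcode gave 50.3%, 39.1% and 62.4% of the UMIs of this list. Cpa3, a gene of this list, had 248 UMIs in MASH-Phe-free barcodes under the 5% line, 245 of them in 1 barcode. Beside these counts, progenitor markers were found in 3 of 13 deep MASH-Phe-free barcodes, none of 7 in MASH and 4 of 5 in Chow, and their part in the difference was not tested. Without barcodes that carried 3 markers of another list, 25 of 790 genes were called higher (3.16%) and 71 lower (8.99%) in MASH over Chow, and 34 of 740 higher (4.59%) and 50 lower (6.76%) in MASH-Phe-free over MASH.

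Sums over all 172 barcodes, which deep barcodes dominate, were also read for the platelet and megakaryocyte lists. Of 11 measured transcription factors 5 were lower in MASH than in Chow and none higher, beside 10.4% lower and 9.41% higher over all genes. They include Gata1, the GATA factor of red cells and megakaryocytes, with 15 UMIs in 7 MASH and 52 UMIs in 15 Chow barcodes, a ratio of 0.267 (0.139 to 0.481). Gata2, its counterpart in progenitors and mast cells, had 14 UMIs in MASH and 58 in Chow, with 51.7% of the Chow UMIs in 1 barcode. In the thrombopoietin pathway Sh2b3, an adaptor that dampens its signal, and Bcl2l1, which keeps platelets alive, were among the genes called lower, and Socs3 was called higher.

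Among the platelet lists 1 of 14 adhesion genes was lower (Esam), 2 of 10 alpha granule genes (Mmrn1 and Gfi1b), 2 of 10 dense granule genes (Slc18a2 and Rab27b) and 3 of 18 cytoskeleton genes (Tuba4a, Tuba8 and Mylk), beside 10.4% of all genes. Of 20 activation genes 2 were higher (Plcg2 and Fcer1g, which myeloid cells also express) and 3 lower. Mmrn1, the alpha granule protein multimerin, had 18 UMIs in 13 of 46 MASH barcodes and 53 UMIs in 29 of 54 Chow barcodes. Rab27b, a small GTPase of dense granule secretion, had 33 UMIs in 14 MASH and 78 UMIs in 27 Chow barcodes, a ratio of 0.391 (0.252 to 0.595). In MASH-Phe-free over MASH 1 gene of these 5 lists was called, P2ry1, an ADP receptor, with 37 UMIs in 25 of 72 barcodes against 9 UMIs in 6 of 46, a ratio of 2.33 (1.10 to 5.49). Of 13 transcription factors 4 were higher in MASH-Phe-free than in MASH, beside 9.38% of all genes, among them Tal1, with 41 UMIs in 21 MASH-Phe-free and 6 UMIs in 5 MASH barcodes. The median log2 ratio of this list was 0.56 over all 172 barcodes and -0.76 in shallow ones, where 2 of its genes were measured and 1, Fli1, was called lower.

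Genes of other cells had UMIs in shallow barcodes too. Hbb-bs had 252 CPM in MASH-Phe-free, 1255 in MASH and 88.6 in Chow in barcodes under 2000 UMIs, with a UMI in 7 of 42, 12 of 27 and 2 of 39. After reduction to 743 UMIs Hbb-bs was held by 7.93%, 31.7% and 3.39% of chosen barcodes and by 3.53%, 9.81% and 0.745% of barcodes with Cd3e, so the order of the libraries was the same in both. Lyz2, a lysozyme gene of myeloid cells, had 2375, 1624 and 1173 CPM in shallow barcodes. It was held by 70.0%, 55.4% and 51.0% of reduced barcodes, against 3.54%, 2.05% and 2.58% of those with Cd3e. Among the other lists in shallow barcodes, the 6 NK markers had no UMI in any library. T cell markers had 1 UMI in MASH-Phe-free, 1 in MASH and none in Chow, where the rule had left out barcodes with Cd3e. B cell markers had 10, 9 and 15 UMIs, macrophage markers 12, 15 and 11, and plasma cell markers 3, 5 and 11. The stromal and endothelial list had 46, 22 and 37 UMIs, of which Pecam1, also an adhesion gene, gave 44, 21 and 35. Neutrophil markers summed to 756, 295 and 664 CPM and erythroid markers to 735, 2067 and 221 CPM. The monocyte list had 46, 47 and 48 UMIs in shallow barcodes, of which F13a1, also an alpha granule gene, gave 43, 41 and 40. The part of such RNA in the differences between shallow barcodes was not tested.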

How the data were processed

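RNA of spleen cells was captured with a 5′ droplet kit and sequenced in pairs, per the labels' protocols. For each barcode the authors deposited whole-number UMI counts of every gene, and Cell Ranger 9.0.1 wrote them, per the file headers; the other deposited columns hold identifiers of 33696 genes and the barcodes, per the file headers. The submitters' processing notes also name build GRCm39 (mm39) and Seurat 5.3.0, without saying what Seurat did. The annotation release was not given in the sources used here. No deposited barcode held fewer than 500 UMIs.

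The barcodes, gene lists and comparisons were chosen with earlier results of these data known. Scripts in Python 3.11.15, with scipy 1.17.1, numpy 2.4.6, scanpy 1.11.5, matplotlib 3.10.9 and pandas 2.3.3, summed UMIs over barcodes of a library, gave CPM, and set ratios with exact conditional Poisson 95% intervals and shares with exact Clopper-Pearson intervals. For ratios of shares the interval was a log-scale binomial one. Log2 ratios carried an offset of 10 CPM. The call rule and the ratio interval were tested on simulated Poisson counts, which hold no spread between barcodes. Shares, the reduction of depth, marker lists and list medians were not tested in this way. Cells are not replicates, and no p-value was computed. Barcodes were reduced at random to 743 UMIs, the 10th percentile, and shallower ones left out. Scrublet served only as an alternative.

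Named genes between libraries were called genes with at least 50 UMIs, at least 5 barcodes and 30 CPM in the higher library, the 8 farthest in each direction, leaving out sex-linked and predicted genes and those of ribosomes, mitochondria, haemoglobin, antibodies and T cell receptors. Up to 4 genes farthest from 0 were taken per list. Marking genes were the 20 with the highest lowest log2 ratio over the 3 libraries. Tln1, Gp5, Clu, Ctla2a, Vwf, Lyz2 and Hbb-bs were also named, after their values were seen or as markers. Alternatives changed the rule, the offset, the minimum count, the scaling, the weights and the doublets. Some results are not reported here.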

Additional observations from a re-analysis of the deposited data

How the results depend on the processing

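No paired analysis was possible because each group had 1 library. The ratio of MASH-Phe-free over MASH in the share of chosen barcodes stayed above 1 under every alternative run, and that of MASH over Chow was 0.995 with 2 of 5 rule genes and 1.03 without the filter on barcodes. The last alternative and the 5% line on 93 platelet genes were chosen after seeing the data.

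Counts of called genes over all chosen barcodes, 366 higher and 404 lower for MASH over Chow and 477 higher and 271 lower for MASH-Phe-free over MASH, depended on the settings. The next counts keep that order, and list genes are those of the 11 fixed lists called in either direction. With 4 of 5 rule genes, 233 genes were higher in MASH over Chow with 29 list genes, and 295 were higher in MASH-Phe-free over MASH with 18 list genes. Without barcodes that carried 3 markers of another list the counts were 25 and 71 with 7 list genes, and 34 and 50 with 4 list genes. With an offset of 50 CPM they were 205 and 179, and 131 and 88 with 21 list genes. Without a minimum of UMIs 750 and 437 genes were lower in the 2 comparisons. With at least 50 UMIs the counts were 160 and 145 with 34 list genes, and 188 and 114 with 19 list genes. With equal weight per barcode 810 were higher in MASH over Chow and 642 lower in MASH-Phe-free over MASH. In barcodes under 2000 UMIs they were 18 and 29 with 2 list genes, and 13 and 24 with 2 list genes. The cause was not tested beyond the smaller number of genes measured under stricter settings.

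Of 242 list medians under alternatives, 204 moved by under 0.5 log2, 34 moved further, and 4 changed sign from a median of at least 1 in size; smaller medians that changed sign are among the others. Without marked barcodes the immune-type list of MASH over Chow stood at -0.74, on 4 measured genes. The interferon list of MASH-Phe-free over MASH then stood at 0.0031, on 2 measured genes. In barcodes under 2000 UMIs MASH-Phe-free over MASH gave 0.10 for the interferon list and -0.17 for the stem and progenitor list. Each of these values is that of the 1 gene measured and does not describe the list. Without marked barcodes the median depth of MASH-Phe-free barcodes was 1224.5 UMIs. At 2 markers in place of 3, 51.4% of MASH-Phe-free, 58.7% of MASH and 37.0% of Chow barcodes were marked. Scaling by the median of ratios shifted log2 levels by -0.06 in MASH-Phe-free, 0.12 in MASH and -0.07 in Chow.

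Having 1 library per group and low depth both limit these results. Shallow barcodes gave 27095 UMIs in MASH, so genes under 20 UMIs were not read, and every gene result in shallow barcodes rests on 27 to 42 barcodes per library.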
